A study of Mus musculus with 6 samples.

Results

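The 10 genes described here encode the 5 subunits of NF-kappaB (*Nfkb1*, *Nfkb2*, *Rela*, *Relb* and *Rel*), 3 cytoplasmic inhibitors (*Nfkbia*, *Nfkbib* and *Nfkbie*), the ubiquitin-editing enzyme A20 (*Tnfaip3*) and the nuclear IkappaB protein *Bcl3*. They were taken by gene name, and all 10 were found among the 54446 genes of the files. RNA-Seq was performed on CD8+ T cells from spleens of wild-type C57BL/6 mice aged 8 weeks, in 3 groups of 2 libraries. Unstimulated cells were fresh. Control cells were kept for 72 h without a magnet on antibodies to CD3 and CD28, which stimulate the T cell receptor and its co-receptor, and SMF cells received the same stimulation for 72 h on a permanent magnet of 0.3 T, which gives a static magnetic field (SMF). No group carries an allele or transgene, and nothing says whether the 2 libraries of a group came from separate animals, so the p-values measure only the spread between these libraries, which may be technical.

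NF-kappaB is a dimer of Rel-homology proteins. In resting T cells most dimers are held in the cytoplasm by IkappaB proteins, and signals from the T cell receptor and CD28 run through PKC-theta, BCL10 and MALT1 to the IkappaB kinase, which marks IkappaB for destruction. *Nfkb1* and *Nfkb2* encode precursors, p105 and p100, that also act as inhibitors until they are processed to p50 and p52, while RelA, RelB and c-Rel carry the activation domains. Several of the genes are themselves textbook targets of NF-kappaB: new IkappaB-alpha from *Nfkbia* and A20 from *Tnfaip3* shut the signal off again.

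The stretches of DNA before the start sites of these genes are shown because the kappaB motif, the sequence that NF-kappaB dimers bind, recurs in them. RefSeq promoters of GRCm38.p6 were found for 8 of the 10 genes, at 11 start sites. The kappaB consensus, searched on both strands in the 250 bases before each start, was present at 7 of the 11 start sites and in 5 of the 8 genes, *Nfkb2*, *Rel*, *Nfkbia*, *Nfkbie* and *Tnfaip3*. The same search matched 7.25% of the 32851 promoters in the table. In *Nfkb2* and *Rel*, 2 matches on the opposite strands overlap and are drawn as 1 run of capitals. *Rela*, *Nfkbib* and *Bcl3* had no match in this window. Capitals mark the matched letters in each line, 5′ to 3′ on the strand of the gene.
*Nfkbia*, chr12:55492648-55492897, minus strand: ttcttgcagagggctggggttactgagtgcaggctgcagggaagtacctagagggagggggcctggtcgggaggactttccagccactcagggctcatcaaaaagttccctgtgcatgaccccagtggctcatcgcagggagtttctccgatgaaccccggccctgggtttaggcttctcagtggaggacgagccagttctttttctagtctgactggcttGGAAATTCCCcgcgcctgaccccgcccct
*Rel*, chr11:23770970-23771219, minus strand: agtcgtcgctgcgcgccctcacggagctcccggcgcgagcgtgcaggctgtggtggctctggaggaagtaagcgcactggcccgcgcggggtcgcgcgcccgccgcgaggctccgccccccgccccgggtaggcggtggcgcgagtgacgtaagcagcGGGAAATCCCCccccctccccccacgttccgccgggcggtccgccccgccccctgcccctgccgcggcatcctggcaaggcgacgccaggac
*Nfkbie*, chr17:45555450-45555699, plus strand: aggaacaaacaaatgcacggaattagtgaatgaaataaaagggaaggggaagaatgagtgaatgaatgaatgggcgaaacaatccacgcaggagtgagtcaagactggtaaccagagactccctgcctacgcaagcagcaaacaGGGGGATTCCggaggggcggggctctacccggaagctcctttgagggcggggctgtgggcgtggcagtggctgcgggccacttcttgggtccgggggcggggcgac
*Nfkb2*, chr19:46304688-46304717, plus strand, around the matches that begin 39 and 38 bases before its first start: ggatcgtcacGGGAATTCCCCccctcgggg
*Nfkb2*, chr19:46305695-46305724, plus strand, before the third of its starts: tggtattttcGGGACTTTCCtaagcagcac
*Tnfaip3*, chr10:19015516-19015545, minus strand: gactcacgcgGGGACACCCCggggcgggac
*Tnfaip3*, chr10:19015411-19015440, minus strand: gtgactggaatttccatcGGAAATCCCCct
The match of *Nfkbia* began 29 bases before the start site and that of *Nfkbie* 106 bases before it. *Rel* had its run of matches from 92 bases before the start. *Tnfaip3* had 2 matches, from 125 and 12 bases before its upstream start, and *Nfkb2* had another match 11 bases before its first start. These are matches of letters in the reference, and binding was not measured.

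Depth, as bases covered, was 67.4 and 132 Mb in the Unstimulated, 64.4 and 172 Mb in the Control and 259 and 227 Mb in the SMF libraries. Covered bases are the coverage of each transcript times its length, summed. A base read many times counts many times, so they do not measure the breadth of sequence covered. Folder dates in the file headers place Unstimulated and Control replicate 1 on 21 June 2017, replicate 2 of both on 12 November 2017 and both SMF libraries on 21 October 2018, so that the field and this date cannot be told apart. Protein-coding genes took 68.7 to 69.2% of all FPKM in the SMF libraries and 49.1 to 50.5% in the other libraries. The 8 markers of CD8 T cells, among them *Cd8a* and *Cd3e*, were above 0 in every library and summed to 554 to 1150 FPKM. The 8 B cell markers summed to 297 to 331 FPKM in the Unstimulated libraries, with none at 0. In the Control and SMF libraries they summed to 45.4 to 73.4 FPKM, with 3 to 5 of them at 0 in each library. Of 8 myeloid markers 4 were in the files. They summed to 77.5 to 83.4 FPKM in the Unstimulated and 47.0 to 53.8 FPKM in the other libraries. *Csf1r* made up most of that sum, with 63.9 to 68.5 FPKM in the Unstimulated and 41.1 to 53.8 FPKM in the other libraries. *Cd14*, *Itgam* and *Cd68* were at 0 in both Control libraries, and *Cd14* was at 0 in all but 1 library. The 3 CD4 T cell markers summed to 12.1 to 25.0 FPKM over all libraries, with *Cd4* at 0 in 3 of them. *Foxp3* was the largest part in each library, with 4.92 to 20.7 FPKM. The erythroid marker *Alas2*, the only 1 of 5 in the files, fell between 1.51 and 18.3 FPKM. NF-kappaB genes are also used by these other cells, and the part of such cells in the comparisons with Unstimulated libraries was not tested. In bulk samples fewer cells of a type and less RNA per cell cannot be told apart. The 5 activation genes summed to 89.6 and 106 FPKM in the Unstimulated, 1658 and 1755 FPKM in the Control and 2565 and 4619 FPKM in the SMF libraries. *Gzmb* made up most of the stimulated sums, with 1494 and 1565 FPKM in Control. *Il2ra*, *Cd44* and *Mki67* were also higher in every stimulated library. *Cd69* was not, with 62.1 and 79.4 FPKM in Unstimulated, 44.4 and 47.6 FPKM in Control and 78.0 and 83.6 FPKM in SMF libraries.

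*Nfkb1* (chromosome 3, 135584655 to 135691547, minus strand) was the subunit gene with the highest FPKM in all 6 libraries. Its level was 29.8 and 31.9 FPKM in Unstimulated, 85.0 and 89.3 FPKM in Control and 136 and 114 FPKM in SMF libraries, which gives 30.8 ± 1.4, 87.1 ± 3.0 and 125 ± 15.6 FPKM (mean ± SD, n = 2). The 3 groups stood in that order with no overlap. Among the 14991 genes tested, *Nfkb1* lay at the 82.3 to 83.9 percentile in the Unstimulated and at the 93.3 to 96.0 percentile in the stimulated libraries.

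*Nfkb2* (chromosome 19, 46304737 to 46312090, plus strand) had 12.3 and 8.90 FPKM in Unstimulated, 13.4 and 31.4 FPKM in Control and 42.8 and 44.0 FPKM in SMF libraries. The groups did not overlap, yet Control replicate 1 was close to the Unstimulated libraries and Control replicate 2 was not. *Rel* (chromosome 11, 23736847 to 23770970, minus strand), the gene of c-Rel, the subunit most typical of lymphocytes, had 7.39 and 4.98 FPKM in Unstimulated, 10.6 and 17.2 FPKM in Control and 23.1 and 20.2 FPKM in SMF libraries. Here too the 3 groups were in one order without overlap.

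*Rela* (chromosome 19, 5637483 to 5648130, plus strand), the gene of the p65 subunit, was level by comparison, with 14.3 and 11.8 FPKM in Unstimulated, 16.2 and 8.75 FPKM in Control and 18.2 and 12.1 FPKM in SMF libraries. All pairs of groups overlapped. *Relb* (chromosome 7, 19606217 to 19629438, minus strand), the partner of p52 in the non-canonical pathway, was low. It was listed at 0 and at 1.79 FPKM in Unstimulated, 1.54 and 5.02 FPKM in Control and 5.52 and 3.61 FPKM in SMF libraries, so that only SMF and Unstimulated libraries were apart. Its covered bases were 0 and 1.01 kb in Unstimulated, 0.422 and 2.91 kb in Control and 5.51 and 2.99 kb in SMF libraries.

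*Nfkbia* (chromosome 12, 55489410 to 55492647, minus strand), the gene of IkappaB-alpha, ran the other way after stimulation. Its level was 37.8 and 34.9 FPKM in Unstimulated, 1.64 and 17.5 FPKM in Control and 24.4 and 33.6 FPKM in SMF libraries. Control was lowest without overlap, and the Control libraries differed from each other by more than the other pairs did. The value of 1.64 FPKM in Control replicate 1 rested on 0.217 kb of covered bases, a sum of depth and not of breadth. There were 4.79 kb in Control replicate 2 and 4.80 to 13.9 kb in the rest.

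*Nfkbib* (chromosome 7, 28758251 to 28767512, minus strand), the gene of IkappaB-beta, had 7.22 and 8.76 FPKM in Unstimulated, 14.5 and 16.2 FPKM in Control and 22.2 and 20.2 FPKM in SMF libraries. In FPKM the replicates were close and the groups were ordered without overlap, as for *Nfkb1*. The value of Unstimulated replicate 1 rested on 0.373 kb of covered bases, all assigned to a transcript of 572 bases. A second measure was covered bases per kilobase of merged exons and per covered Mb of the library. By it *Nfkbib* had 2.55 and 5.29 in Unstimulated, 12.1 and 10.4 in Control and 14.5 and 12.3 in SMF libraries. Its annotated exons share 314 bases, 14.5% of their length, with *Ccer2* on the opposite strand; StringTie was run on stranded reads. *Nfkbie* (chromosome 17, 45555703 to 45563169, plus strand), the gene of IkappaB-epsilon, had 5.73 and 3.03 FPKM in Unstimulated, 1.32 and 2.69 FPKM in Control and 2.93 and 3.89 FPKM in SMF libraries. Control lay lowest without overlap, by margins of under 1 FPKM. The values of Control replicates 1 and 2 rested on only 0.332 and 1.55 kb of covered bases.

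*Tnfaip3* (chromosome 10, 19000910 to 19015657, minus strand) had 9.14 and 22.5 FPKM in Unstimulated, 15.8 and 12.5 FPKM in Control and 7.65 and 18.2 FPKM in SMF libraries, with all groups overlapping. *Bcl3* (chromosome 7, 19808462 to 19822770, minus strand), which binds p50 and p52 dimers in the nucleus, was listed at 0 and at 3.61 FPKM in Unstimulated, 0.850 and 4.44 FPKM in Control and 0.626 and 1.09 FPKM in SMF libraries. The 2 Unstimulated and the 2 Control libraries lay far apart, the SMF libraries were close to each other, and all groups overlapped. Each value of *Bcl3* rested on at most 0.877 kb of covered bases. By mean FPKM over 6 libraries the order was *Nfkb1* 80.9, *Nfkb2* 25.5, *Nfkbia* 25.0, *Nfkbib* 14.9, *Tnfaip3* 14.3, *Rel* 13.9, *Rela* 13.6, *Nfkbie* 3.26, *Relb* 2.91 and *Bcl3* 1.77. *Nfkb1* led in 4 of the 6 libraries, and *Nfkbia* was above it in both Unstimulated ones. From *Nfkb2* to *Rela*, and from *Nfkbie* to *Bcl3*, the ranges of neighbours over the 6 libraries overlapped, whereas every library had more *Rela* than the highest value of *Nfkbie*.

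**Figure D1:**
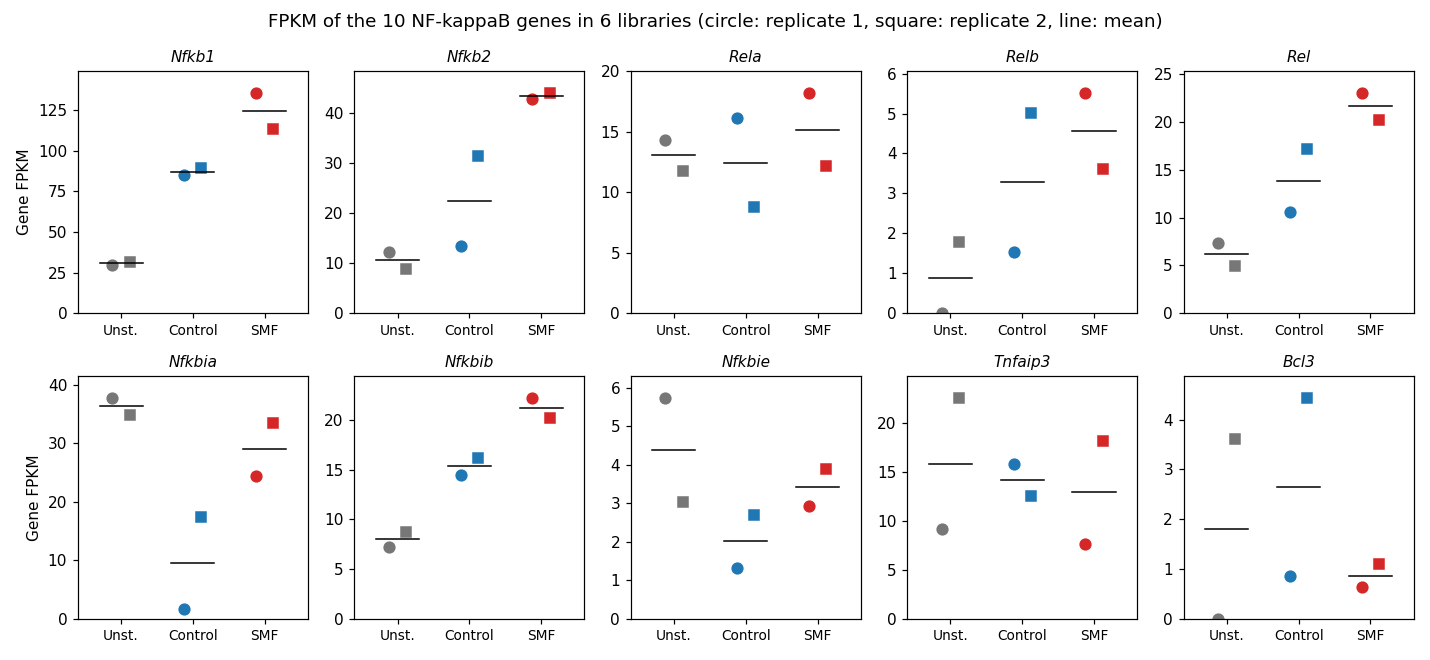
Each panel plots the FPKM of 1 gene on its own linear axis from 0, for Unstimulated (Unst., grey), Control (blue) and SMF (red) libraries; circles are replicate 1, squares replicate 2 and the line is the mean. *Nfkb1*, *Nfkb2*, *Rel* and *Nfkbib* step up from group to group, *Nfkbia* and *Nfkbie* are lowest in Control, and *Rela*, *Tnfaip3* and *Bcl3* overlap between groups.

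The comparison of Control with Unstimulated libraries asks what stimulation for 72 h did, together with the culture itself, since Unstimulated cells were fresh. Values of log2(FPKM + 1) were fitted with limma over the 6 libraries, and a gene was called at a fold change of at least 2 with an unadjusted p of at most 0.05, the thresholds of the study; adjusted p-values are Benjamini-Hochberg over all 14991 genes. *Nfkb1* and *Rel* were called higher, 2 of 10 members where 12.3% of all genes were called higher. *Nfkbia* was called lower, 1 of 10 members where the share of all genes was 12.6%. *Nfkb1* rose by 1.47 on the log2 scale (SE 0.25, adjusted p = 0.0252). *Rel* rose by 1.03 (SE 0.42, unadjusted p = 0.0477, adjusted p = 0.182), and this call was lost under several other settings of the fit, such as gene TPM with 0.95 (unadjusted p = 0.0749). *Nfkbia* fell by 2.42 (SE 0.87, unadjusted p = 0.0305, adjusted p = 0.141). Without Control replicate 1 it fell by 1.01 (unadjusted p = 0.0377), and without Control replicate 2 it fell by 3.82. Its call was lost, with the fold about as large, when any 1 of the other 4 libraries was left out. Without Unstimulated replicate 1 or 2 the values were -2.36 and -2.47 (unadjusted p = 0.191 and 0.177), and without SMF replicate 1 or 2 the value stayed at -2.42 (unadjusted p = 0.0844 and 0.0847). *Nfkbib* gave 0.87 (SE 0.35, unadjusted p = 0.0462), below the fold limit. By covered bases per exon length *Nfkbib* gave 1.37 in limma and was called higher (unadjusted p = 0.0152). The values of *Nfkb2* (0.91, adjusted p = 0.279), *Relb* (1.23, adjusted p = 0.363) and *Nfkbie* (-0.83, adjusted p = 0.397) did not pass, and without Control replicate 1 *Nfkb2* was called with 1.50. *Rela* (-0.11), *Tnfaip3* (-0.04) and *Bcl3* (0.56) had intervals on both sides of 0. For *Rela* the 95% interval ran from -1.20 to 0.97, so that a change of up to about 2-fold either way lies within it.

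Since each Control library shares a folder date with 1 Unstimulated library, the difference could be read within dates. *Nfkb1* was higher in Control by 1.48 in June and 1.46 in November on the log2 scale, and *Nfkbib* by 0.92 and 0.82. In FPKM both were nearly equal on the 2 dates. By covered bases per exon length and per covered Mb the dates were less alike. *Nfkbib* went from 2.55 to 12.1 in June and from 5.29 to 10.4 in November. *Nfkb1* went from 13.4 to 29.25 in June and from 9.84 to 26.9 in November. *Rel* gave 0.46 and 1.60, *Nfkb2* 0.11 and 1.71, and *Relb* 1.34 and 1.11. *Nfkbia* was lower by a difference of -3.88 in June and -0.96 in November, and *Nfkbie* by -1.54 and -0.13. The sign was thus shared by both dates in these 7 genes and in *Bcl3* (0.89 and 0.24), and it was not shared in *Rela* (0.17 and -0.39) and *Tnfaip3* (0.73 and -0.80).

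The comparison of SMF with Control libraries asks what the field added to stimulation, together with the folder date, since these groups share none. None of the 10 genes was called by limma in either direction, and 0 had an unadjusted p of at most 0.05. Over all genes 12.5% were called higher and 5.72% lower. The values of 8 members were above 0, with a median of 0.50 over the 10 genes beside 0.32 over all genes. *Nfkbia* had the largest difference, 2.09 (SE 0.87, 95% interval -0.02 to 4.19, unadjusted p = 0.0514, adjusted p = 0.240). Without Control replicate 1 the difference was 0.68 (unadjusted p = 0.104), and without Control replicate 2 to 3.49 (unadjusted p = 0.000848). *Nfkb2* gave 1.04 (SE 0.47, unadjusted p = 0.0658), and 1.63 without Control replicate 2, where it was called (unadjusted p = 0.00999). *Nfkb1* gave 0.51 (SE 0.25, unadjusted p = 0.0900), *Rel* 0.64 (SE 0.42, unadjusted p = 0.178), *Nfkbib* 0.44 (SE 0.35, unadjusted p = 0.251), *Nfkbie* 0.58 (unadjusted p = 0.340), *Relb* 0.49 (unadjusted p = 0.545) and *Rela* 0.30 (unadjusted p = 0.530). *Tnfaip3* (-0.22) and *Bcl3* (-0.78) were below 0.

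In 6 of the 10 members, *Nfkb1*, *Nfkb2*, *Rel*, *Nfkbia*, *Nfkbib* and *Nfkbie*, each SMF library was higher than each Control library. Of all genes tested, 37.4% did so. The larger protein-coding share of the SMF libraries moves with this. Once every library was set to one protein-coding FPKM sum, 4 of the 10 members stood above Control without overlap, where 28.5% of all genes did, and *Rel* and *Nfkbie* overlapped. On that scale *Nfkb1* gave 0.18, *Rel* 0.32, *Nfkbib* 0.13, *Nfkb2* 0.72 and *Nfkbia* 1.78, and *Rela* turned to -0.01. The median over all genes went from 0.32 to 0.06, and the share of calls that were higher went from 68.6% to 41.6%. Without Control replicate 1, *Nfkb2* gave 0.46 (unadjusted p = 0.232) on the FPKM scale.

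SMF with Unstimulated libraries compares stimulation, field and folder date together with fresh cells. *Nfkb1*, *Nfkb2*, *Rel* and *Nfkbib* were called higher, 4 of 10 members where 22.4% of all genes were called higher. No member was called lower by limma, where 14.8% of all genes were, and the lowest p among the 4 members below 0 was that of *Tnfaip3* (-0.26, unadjusted p = 0.672). *Nfkb1* rose by 1.98 (SE 0.25, adjusted p = 0.00644), a 3.93-fold change on this scale. *Nfkb2* rose by 1.95 (SE 0.47, adjusted p = 0.0316), *Rel* by 1.67 (SE 0.42, adjusted p = 0.0358) and *Nfkbib* by 1.31 (SE 0.35, adjusted p = 0.0422). *Nfkbib* came to 0.86 with one protein-coding sum, below the fold limit, and *Nfkb2* lost its call without Unstimulated replicate 2 (1.74, unadjusted p = 0.0605). *Relb* gave 1.71 (SE 0.76, unadjusted p = 0.0638). *Nfkbia* gave -0.33 (95% interval -2.44 to 1.77), *Nfkbie* -0.25, *Bcl3* -0.22 and *Rela* 0.18. The 2 comparisons with Unstimulated libraries share those libraries. In 4 of the 10 members, *Nfkb1*, *Nfkb2*, *Rel* and *Nfkbib*, the libraries were ordered Unstimulated, Control, SMF without overlap, and 11.0% of all genes were so ordered.

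**Figure D2:**
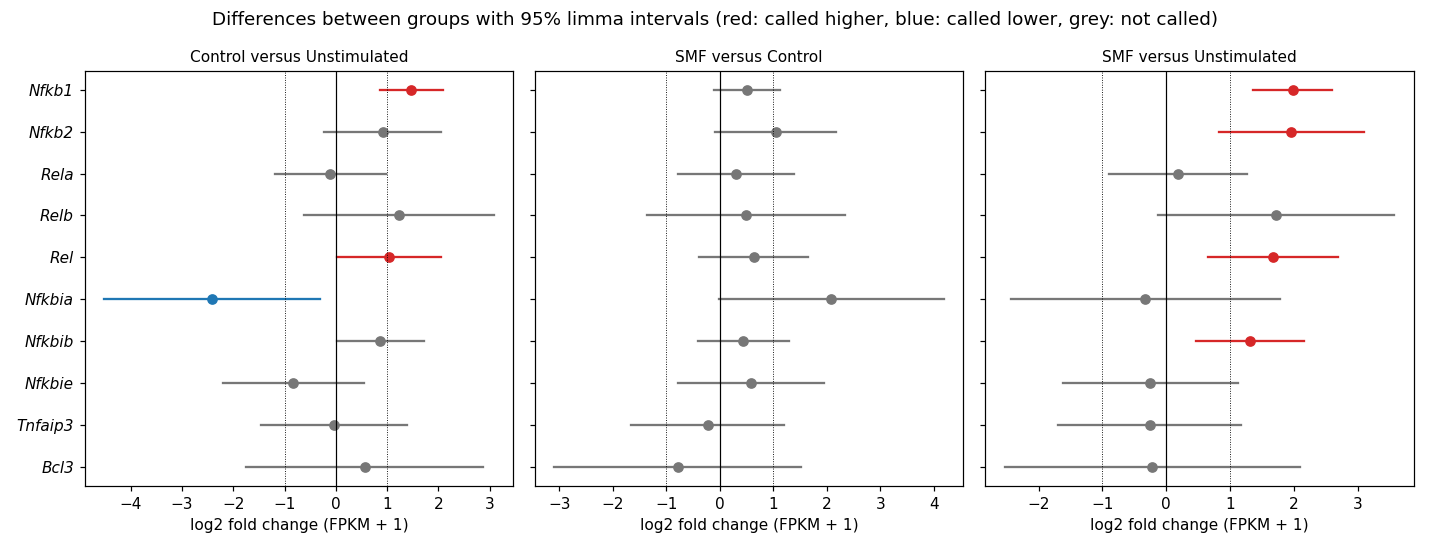
Points are log2 fold changes of FPKM + 1 for each gene in 3 comparisons, bars are 95% limma intervals, the solid line is 0 and dotted lines are a 2-fold change; red was called higher, blue lower and grey not called. *Nfkb1* stands clear of 0 in both comparisons with Unstimulated libraries, while every SMF versus Control interval includes 0.

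Ratios between members within a library do not depend on how libraries are scaled. They are given without a test. *Nfkb1* to *Rela* was 2.09 and 2.70 in Unstimulated, 5.26 and 10.2 in Control and 7.45 and 9.36 in SMF libraries, with all stimulated libraries above both Unstimulated ones. By covered bases per exon length the same ratio was 0.701 and 0.634, then 1.39 and 2.43, then 1.87 and 2.24. *Rel* to *Rela* was 0.517 and 0.423 in Unstimulated, 0.654 and 1.97 in Control and 1.27 and 1.67 in SMF libraries, so that c-Rel transcripts outnumbered p65 transcripts per length in 3 of the 4 stimulated libraries and in no Unstimulated one. *Rela* took 22.4 and 19.9% of the summed FPKM of the 5 subunits in Unstimulated, 12.8 and 5.77% in Control and 8.09 and 6.27% in SMF libraries. These shares depend on the measure. By covered bases per exon length and per covered Mb, *Rela* was the highest subunit gene in both Unstimulated libraries. It had 19.1 and 15.5 there, beside 13.4 and 9.84 for *Nfkb1*. The share of *Rel* was 8.35 to 11.6% over all 6 libraries, with the groups overlapping. The subunit sum itself was 63.8 and 59.3 FPKM in Unstimulated, 127 and 152 FPKM in Control and 225 and 194 FPKM in SMF libraries.

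Among the 3 cytoplasmic inhibitors, *Nfkbia* held 74.5 and 74.8% of the sum in Unstimulated, 9.39 and 48.1% in Control and 49.2 and 58.2% in SMF libraries. *Nfkbib* held 14.2 and 18.8%, then 83.1 and 44.6%, then 44.9 and 35.0%. The balance between IkappaB-alpha and IkappaB-beta transcripts thus differed between fresh and stimulated libraries, and Control replicate 1 lay farthest out. The sum of the 3 inhibitors divided by the sum of the 5 subunits was 0.795 and 0.787 in Unstimulated, 0.138 and 0.240 in Control and 0.220 and 0.298 in SMF libraries. Control and SMF overlapped in this ratio, and both were below Unstimulated. By covered bases per exon length it was 0.917 and 1.20, then 0.193 and 0.304, then 0.289 and 0.441.

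**Figure D3:**
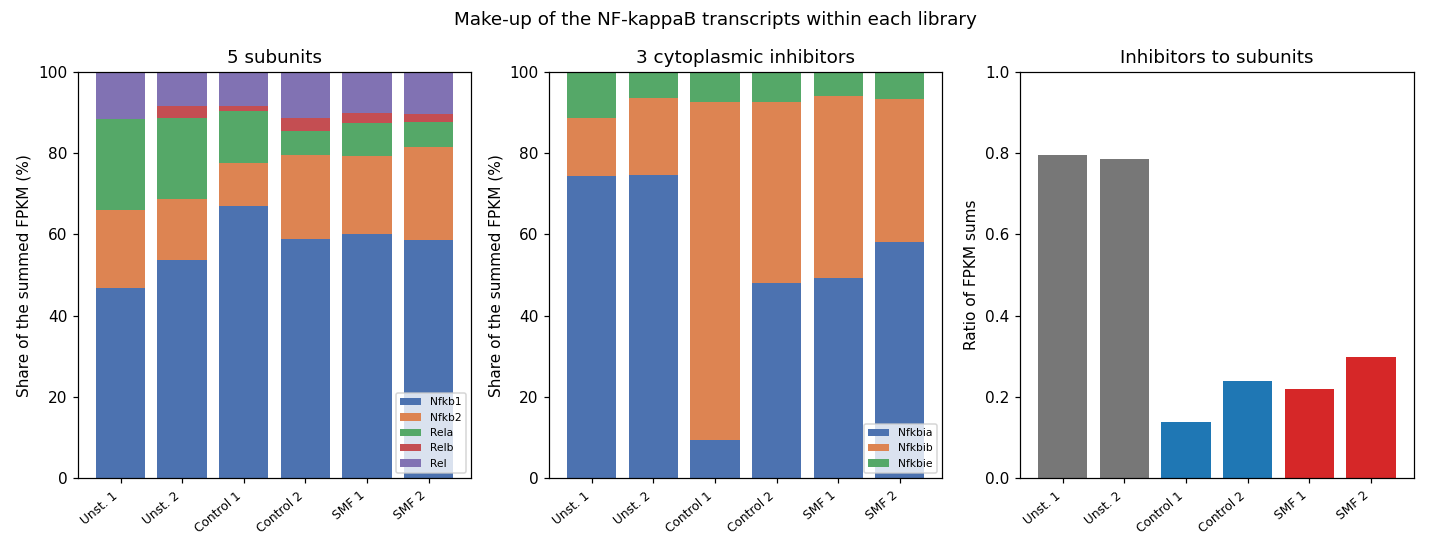
Stacked bars give, for each library, the share in percent of the summed FPKM of the 5 subunits (left) and of the 3 cytoplasmic inhibitors (middle), and the right panel gives the ratio of the inhibitor sum to the subunit sum. The ratio is near 0.8 in both Unstimulated libraries and at most 0.298 in the stimulated ones.

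StringTie divided each gene among its annotated transcripts, and the division was less steady than the gene sum. *Rela* and *Rel* have a single transcript in the annotation. All transcripts of *Nfkb2* and *Nfkbib* are protein-coding. For *Nfkb1*, with 10 transcripts, protein-coding ones carried 27.5 and 14.0 FPKM in Unstimulated, 53.1 and 61.4 FPKM in Control and 90.4 and 79.3 FPKM in SMF libraries, the same order of groups as the gene sum. The transcript of 4117 bases carried 27.5 and 53.1 FPKM in the libraries of June 2017 and 0.248 to 17.7 FPKM in the rest, where a transcript of 3007 bases carried 13.8 to 72.7 FPKM and was at 0 in the June libraries. The assignment of *Nfkb1* to these transcripts thus moved with the folder date. It also moved with depth, since the June libraries had 67.4 and 64.4 Mb covered and the rest 132 to 259 Mb. Which of these it followed was not tested. FPKM of short transcripts also add up in a gene sum. By covered bases per kilobase of merged exons and per covered Mb of the library, a measure chosen after the data were seen, *Nfkb1* had 9.84 to 13.4 in Unstimulated and 26.9 to 41.0 in stimulated libraries. *Nfkb2* had 10.9 to 15.2 and 16.1 to 49.8 and was above *Nfkb1* in 5 of 6 libraries. The merged exons by which this measure divides include retained introns. They span 12061 bases in *Nfkb1*, beside 4117 bases in its transcript named above, and 3289 bases in *Nfkb2*. The lead of *Nfkb1* in FPKM therefore depends on the measure, and its higher level in stimulated libraries was present in both.

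*Tnfaip3* was split between protein-coding and retained-intron transcripts. Protein-coding ones carried 6.32 and 1.26 FPKM in Unstimulated, 2.48 and 5.54 FPKM in Control and 3.71 and 12.6 FPKM in SMF libraries, or 5.60 to 69.5% of the gene. The library highest for the gene as a whole, Unstimulated replicate 2, was lowest for these transcripts. *Relb* was assigned wholly to retained-intron transcripts in Unstimulated replicate 2, Control replicate 1 and SMF replicate 1, and 56.6 and 22.8% to protein-coding ones in Control and SMF replicate 2. *Nfkbie* was assigned wholly to its protein-coding transcripts in Unstimulated and SMF replicate 1 and not at all in Control replicate 1 and SMF replicate 2. The *Nfkbia* transcript of 1578 bases that encodes IkappaB-alpha had 30.4 and 34.6 FPKM in Unstimulated, 1.64 and 11.2 FPKM in Control and 17.6 and 31.3 FPKM in SMF libraries. Counting protein-coding transcripts only, *Nfkbia* gave 2.11 in SMF versus Control and passed both thresholds (unadjusted p = 0.0332), a setting chosen after the data were seen. The kit measures total RNA, so unspliced RNA is also counted.

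**Figure D4:**
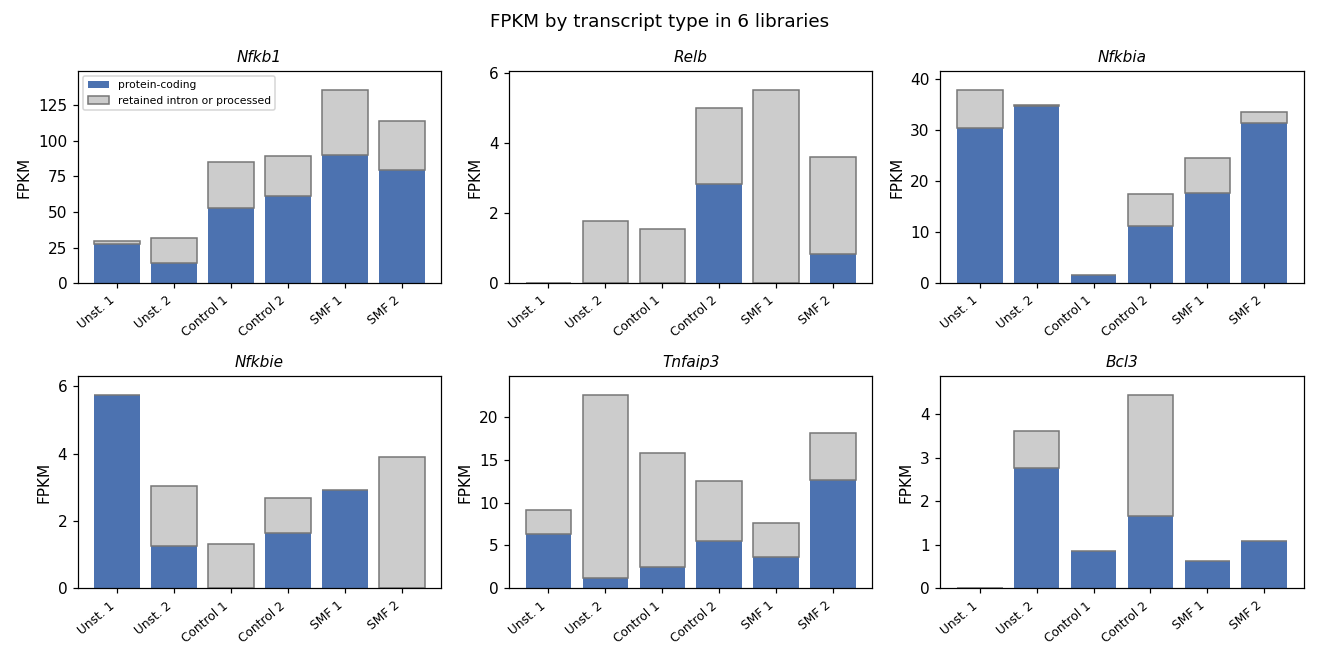
Bars stack the FPKM of protein-coding transcripts (blue) and of retained-intron or processed transcripts (grey) for 6 genes in each library, on linear axes from 0. Protein-coding *Nfkb1* keeps the order of the groups, whereas the split of *Relb*, *Nfkbie* and *Tnfaip3* varies between replicates of a group.

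The other genes of the pathway were read from 3 lists and are described without a test of the list. Of 22 kinases and adaptors that lead to NF-kappaB, 1 was called higher and 4 lower in Control than in Unstimulated libraries. Of all genes 12.3% and 12.6% were so called. The list median was -0.47 beside -0.05 over all genes. *Malt1*, a paracaspase, rose by 1.26, from 17.7 and 8.14 FPKM to 35.5 and 26.0 FPKM. *Ikbkb*, the catalytic subunit IKK-beta, fell by 2.16 (adjusted p = 0.0266), from 49.5 and 38.0 FPKM to 7.15 and 11.1 FPKM. *Prkcq*, the kinase PKC-theta, fell by 1.65. In SMF versus Control 4 of the 22 were called higher and 0 lower, where 12.5% and 5.72% of all genes were, with a list median of 0.62 beside 0.32 over all genes. Those called higher were *Prkcq* by 1.66, *Map3k7*, the kinase TAK1, by 1.48, *Ikbkb* by 1.29 and *Tab2*, a TAK1 partner, by 1.08. Their adjusted p-values lay between 0.141 and 0.231. With one protein-coding sum 2 were called higher and 1 lower, and without Control replicate 1 only 1 was called higher. In SMF versus Unstimulated libraries 1 of the 22 was called higher and 1 lower, where 22.4% and 14.8% of all genes were. *Malt1* rose by 2.05 and *Map3k14*, the NIK kinase of the non-canonical pathway, fell by 1.16. The list median was 0.10 beside 0.27 over all genes.

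Of the 20 other inhibitors and nuclear IkappaB proteins 19 were tested. In Control versus Unstimulated libraries 2 were called higher, the deubiquitinases *Otulin* (1.38) and *Otud7b* (1.17), where 12.3% of all genes were. Another 2 were called lower, where 12.6% of all genes were. Of these *Commd1*, a factor in RelA turnover, fell by 1.36. In SMF versus Control only *Otud7b* was called, higher by 1.08 (unadjusted p = 0.0456), from 5.56 and 7.12 FPKM to 13.6 and 15.4 FPKM. This call was lost with one protein-coding sum. Of all genes 12.5% were called higher and 5.72% lower. In SMF versus Unstimulated libraries 3 were called higher, *Usp15* (2.39), *Otulin* (2.31) and *Otud7b* (2.26), where 22.4% of all genes were. The 1 called lower was *Commd1*, which fell by 1.94, where 14.8% of all genes were called lower. The list medians were -0.33, 0.68 and 0.14 in these 3 comparisons, beside -0.05, 0.32 and 0.27 over all genes.

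Of 34 target genes outside the 10 members 31 were tested. Control versus Unstimulated libraries gave 12 higher and 3 lower, where 12.3% and 12.6% of all genes were called, with a median of 1.27 beside -0.05 over all genes. The co-stimulatory receptors *Tnfrsf9* (4-1BB) and *Tnfrsf4* (OX40) rose by 6.53 and 5.50, and *Il2ra*, the alpha chain of the interleukin-2 receptor, rose by 4.98. *Tnfrsf4* was listed at 0 in both Unstimulated libraries and at 44.5 and 43.8 FPKM in Control. In the Unstimulated libraries *Tnfrsf9* had 0 and 1.90 FPKM and *Il2ra* 0.708 and 0.894 FPKM. The fitted values of these 3 genes therefore depend on the pseudocount. *Icam1*, an adhesion molecule, fell by 1.55, *Irf1*, an interferon-responsive transcription factor, fell by 1.33, and *Birc3*, the ubiquitin ligase cIAP2, fell by 1.26. In SMF versus Unstimulated libraries 17 were called higher and 1, *Ccl5*, lower, where 22.4% and 14.8% of all genes were called, with a median of 1.81 beside 0.27 over all genes. *Tnfrsf9*, *Tnfrsf4* and *Il2ra* again had the largest values, 6.92, 5.80 and 5.80, and *Ccl5* fell by 3.10.

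In SMF versus Control 7 of the 31 target genes were called higher and 1 lower, where 12.5% and 5.72% of all genes were called, with a median of 0.80 beside 0.32 over all genes. The cytokine gene *Tnf* rose by 2.08, from 7.01 and 2.90 FPKM to 21.5 and 23.9 FPKM. The chemokine genes *Ccl3* and *Ccl4* rose by 1.99 and 1.85, with *Ccl3* at 21.9 and 49.0 FPKM in Control and 126 and 141 FPKM in SMF. *Icam1* rose by 1.41, *Sod2*, the mitochondrial superoxide dismutase, by 1.35, *Ccnd2*, cyclin D2, by 1.31, and *Fas*, the death receptor, by 1.12. The chemokine gene *Ccl5* was the one called lower, from 14.0 and 10.9 FPKM to 0.472 and 6.56 FPKM. None passed 0.05 after adjustment over all genes, with adjusted p-values of 0.145 to 0.237. With one protein-coding sum 1 was called higher, and without Control replicate 1 it was 3.

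**Figure D5:**
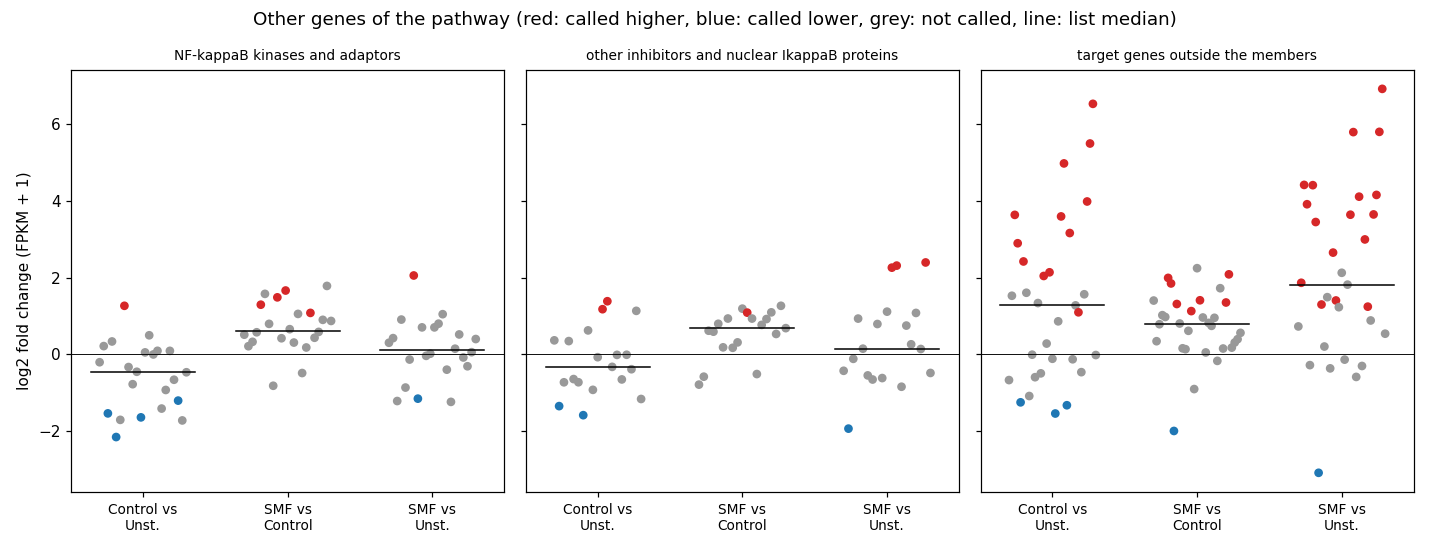
Each point is the log2 fold change of FPKM + 1 of 1 gene in 3 comparisons, for kinases and adaptors, other inhibitors and target genes; red was called higher, blue lower, grey not called, and the line is the list median. Target genes spread widely upward against Unstimulated libraries (medians 1.27 and 1.81), and in SMF versus Control most points of all 3 lists lie above 0, on a scale where the median of all genes was 0.32.

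The pattern of *Nfkb1*, the member with the highest mean, was compared with those of 6916 protein-coding genes outside the family whose mean reached 5 FPKM. The most alike were *Hmgb2* and *Diaph3* (both r = 0.999) and *Nuf2* (r = 0.998), by Pearson's r of log2(FPKM + 1) over 6 libraries. *Hmgb2* had 19.3 and 21.3 FPKM in Unstimulated, 80.8 and 85.9 FPKM in Control and 138 and 125 FPKM in SMF libraries. The 6 points form 3 groups and share their libraries, and 160 genes had an r above 0.98, so the likeness is a description. Within the family, *Nfkbib* (r = 0.990) and *Rel* (0.937) were most like *Nfkb1*, followed by *Nfkb2* (0.867) and *Relb* (0.815), while *Rela* (0.163), *Bcl3* (0.025), *Tnfaip3* (-0.220), *Nfkbia* (-0.303) and *Nfkbie* (-0.427) were not.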

How the data were processed

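Stranded total-RNA libraries of mouse CD8+ T cells were quantified by the authors with StringTie 1.3.5 on GRCm38 with GENCODE M19, annotated transcripts only, and deposited as 1 file per library; the submitters' processing notes also name Trimmomatic 0.36 and HISAT2, without a version for the latter. The deposited FPKM and TPM were normalized by the authors for transcript length and library size. The deposited coverage was not normalized, and multiplied by transcript length it gave the bases covered. The files hold no counts, so no counting intervals are given. A further table of FPKM deposited for the series has 3 columns of values that could not be tied to any sample; it was left aside.

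Gene FPKM was summed over transcripts. Genes whose mean reached 1 FPKM were fitted as log2(FPKM + 1) with limma 3.58.1 (R 4.3.3), 3 groups together, two-sided, with the variance trend and 3 residual degrees of freedom. Genes were called at a fold of 2 and p of 0.05. A fold change on this scale understates that of low genes. Gene types came from GENCODE M21 and promoters from RefSeq (GRCm38.p6). The procedure was tested on simulated data. All 10 members are named; of the lists, the genes called in SMF versus Control and, per list and comparison, up to 3 of the largest changes each way among those called whose mean reached 5 FPKM; and the 3 genes most like the member of highest mean. Some genes that this rule names are not reported here. Members and lists were chosen with earlier results of these data known. Alternatives were other pseudocounts, filters, scalings, variance models, a replicate block, leaving out each library and, added after the data were seen, covered bases and protein-coding transcripts only.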

Additional observations from a re-analysis of the deposited data

How the results depend on the processing

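Of 498 refitted values of single members, 448 kept direction and call, 16 lost a call, 11 gained one and 23 changed sign; none of those 23 belonged to a called value. In Control versus Unstimulated libraries the 2 members called higher became 1 with gene TPM, one protein-coding sum, no variance trend, only the 2 groups fitted and an adjusted p of at most 0.05, in each case through the loss of *Rel*, and 1 to 3 when 1 library was left out. Covered bases gave 3, with *Nfkbib* added. The 1 called lower (*Nfkbia*) became 0 with only the 2 groups fitted and with the adjusted p, and 0 to 1 when 1 library was left out. In SMF versus Control the 0 called higher became 1 (*Nfkbia*) with a mean of at least 5 FPKM, with covered bases and with protein-coding transcripts, 2 (*Nfkbia* and *Nfkb2*) with gene TPM, and 0 to 2 when 1 library was left out. The cause was not tested.

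Replicate numbers were also used as a block. The deviations of same-numbered libraries correlated with r of 0.096 (Unstimulated and Control, which also share a folder date), 0.03 (Unstimulated and SMF) and 0.021 (SMF and Control), and the labels do not say that a number marks a pair. With the replicate block 1 member (*Nfkb1*) was called higher and 1 lower in Control versus Unstimulated, 1 (*Nfkbia*) higher in SMF versus Control, and the 4 calls of SMF versus Unstimulated were unchanged.

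The changes of sign, in log2 fold changes that were never called, were as follows. Leaving out 1 library moved *Rela* between -0.52 and 0.30 in Control versus Unstimulated, between -0.11 and 0.71 in SMF versus Control and between -0.091 and 0.46 in SMF versus Unstimulated. With one median and one protein-coding sum *Rela* came to -0.044 and -0.014 in SMF versus Control and to -0.069 and -0.27 in SMF versus Unstimulated. *Tnfaip3* moved between -0.64 and 0.57, between -0.80 and 0.35 and between -0.87 and 0.34 in these comparisons when 1 library was left out, and came to 0.23, 0.75 and 0.98 with protein-coding transcripts only and to 0.050 with one median in Control versus Unstimulated. *Bcl3* moved between -0.54 and 1.67 in Control versus Unstimulated and between -1.32 and 0.88 in SMF versus Unstimulated, where a pseudocount of 0.1 gave 0.61. *Relb* moved between -0.14 and 1.11 in SMF versus Control, and *Nfkbie* between -0.62 and 0.12 in SMF versus Unstimulated.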
